A study of Mus musculus with 30 samples.

Results

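The effect of KCL-HO-1i, an inhibitor of the heme-degrading enzyme heme oxygenase-1 (HO-1), was measured in mammary tumours as the average of 3 matched differences. All 15 libraries from tumours that received KCL-HO-1i, of 30 in the series, were set against the other 15, in the pairs KCL-HO-1i against vehicle, KCL-HO-1i/5-FU against 5-FU and KCL-HO-1i/gemcitabine against gemcitabine, with 5 libraries in each group. The tissue was the breast tumour of mice of the line FVB/N-Tg(MMTV-PyVT)634Mul/J. In this line the mouse mammary tumour virus promoter drives the polyoma virus middle T antigen, and all 6 groups carried the transgene. Per the labels the drugs were given for 72 hours, KCL-HO-1i at 25 µmol/kg daily, 5-fluorouracil (5-FU, an antimetabolite) at 40 mg/kg every 4 days and gemcitabine (a cytidine analogue) at 64 mg/kg every 7 days, by injection into the peritoneum. The study's own methods differ from these labels, with fewer hours and less gemcitabine. The assay was bulk RNA sequencing of tumour tissue, so that a cell type that is more abundant and one that holds more RNA per cell cannot be told apart.

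HO-1, the product of Hmox1, splits heme into biliverdin, carbon monoxide and iron. Biliverdin reductases then reduce biliverdin to bilirubin, the iron is stored in ferritin or leaves the cell through ferroportin (Slc40a1), and free heme relieves the repressor BACH1 from the Hmox1 gene while the activator NRF2 binds there. In tumours HO-1 can be made by macrophages, among them cells that lie along blood vessels and carry the hyaluronan receptor LYVE-1. The gene lists used here therefore covered heme and iron handling, NRF2 and BACH1 targets, the cell types a tumour piece can hold, and the growth machinery of the tumour cells.

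Library totals ran from 10067698 to 13622395 counts, with a median of 12096816, and between 1.44% and 9.69% of counts came from mitochondrial genes. Of 21841 genes 13663 passed the expression filter and were tested. The luminal markers of mammary epithelium (keratins, Epcam and others, 18 genes) summed to between 5266 and 8027 CPM (reads scaled to library size, with trimmed mean of M-values factors) without KCL-HO-1i and to between 3577 and 7617 CPM with it, and none of the 18 was at 0 in all libraries. Libraries of both kinds stood apart on tissue markers. A list of 16 skeletal muscle genes summed to 2060 CPM in KCL-HO-1i replicate 3, 5410 in KCL-HO-1i replicate 4 and 16261 in KCL-HO-1i/gemcitabine replicate 2, against at most 340 CPM in any library without KCL-HO-1i and 396 CPM in the 11 libraries with it that did not stand apart. The luminal sum was lowest in KCL-HO-1i/5-FU replicate 3 (3577 CPM). Without KCL-HO-1i, 5-FU replicate 4 had a milk protein sum of 699 CPM, against at least 5317 CPM in every other library, and vehicle replicate 3 had a macrophage sum of 440 CPM, against at least 755 CPM. The main results are given below also without the first 4 libraries, all with KCL-HO-1i, and without all 6, both of which were chosen after seeing the data.

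**Figure D1:**
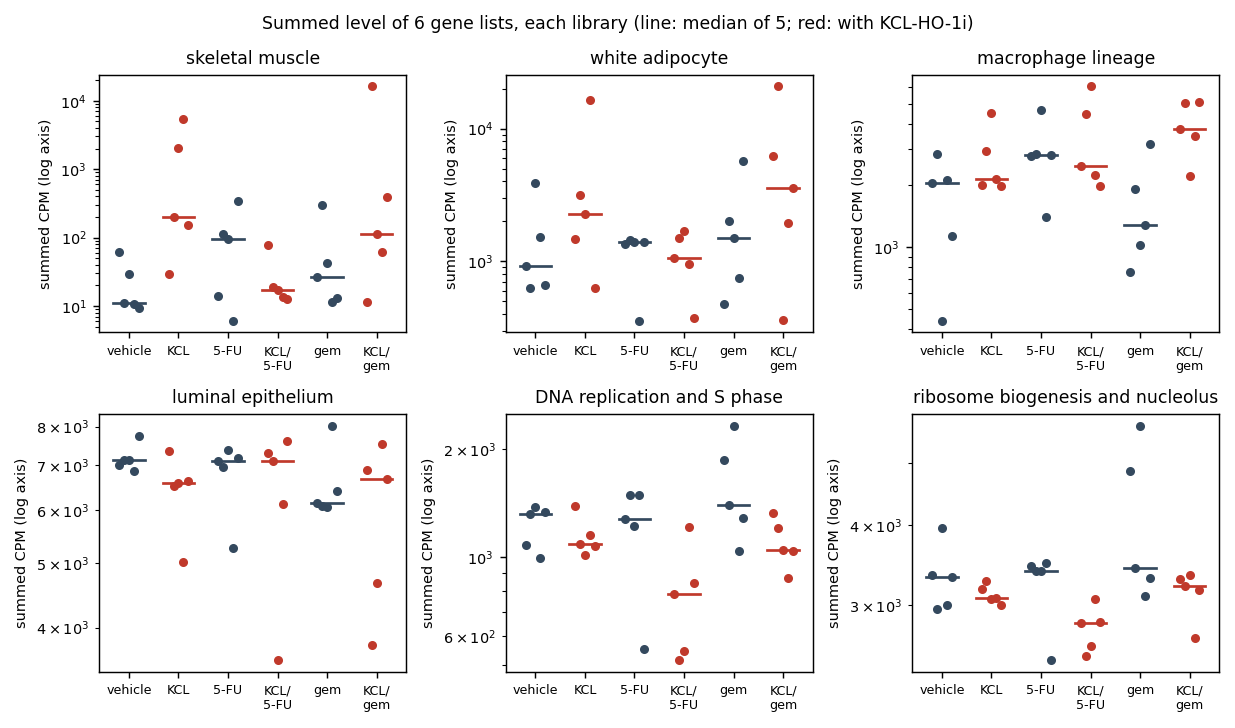
Summed level of 6 gene lists in CPM (vertical log axis) in each of the 30 libraries, by group (KCL stands for KCL-HO-1i and gem for gemcitabine); points are libraries, lines are medians of 5, and red marks tumours that received KCL-HO-1i. The muscle sum reaches 5410 CPM in KCL-HO-1i replicate 4 and 16261 CPM in KCL-HO-1i/gemcitabine replicate 2, while the DNA replication sum is lower in the median of each group with KCL-HO-1i than in its match.

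At an adjusted p under 0.05 (edgeR, quasi-likelihood test, Benjamini-Hochberg adjustment over 13663 genes) 7 genes were higher with KCL-HO-1i, 0.0512% of those tested, and 1 was lower, 0.00732%. Of the 7, Lilr4b and Spic passed the expression filter only through libraries with KCL-HO-1i. At an adjusted p under 0.1 there were 881 higher genes (6.45%) and 397 lower genes (2.91%), and at an unadjusted p under 0.05 there were 1877 (13.7%) and 1260 (9.22%). The 3 matched differences had the same sign for 2971 higher genes (21.7%) and 2611 lower genes (19.1%). The median log2 fold change over all genes tested was 0.00.

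These counts moved with the tool and with single libraries. DESeq2 called 1139 genes at an adjusted p under 0.05 and limma-voom with quality weights 263. Each library has its own identifier in the labels, and the number before its dot is called the mouse code here. The labels do not say what that number stands for. With the mouse code as a covariate edgeR called 0 genes, with 848 higher and 522 lower at an unadjusted p under 0.05. Of the 13 codes 3 held libraries of both kinds (4 with KCL-HO-1i and 3 without), 5 only libraries with it and 5 only libraries without. This fit thus rested on few libraries and left 12 residual degrees of freedom. Code 76 held 5-FU replicates 1 to 3 and gemcitabine replicates 1 to 4, and only libraries without KCL-HO-1i. Within the vehicle and gemcitabine backgrounds 0 codes held both kinds, so that code and KCL-HO-1i cannot be told apart there. Between both adjusted thresholds the count went from 8 to 1278 genes, of which 467 had an adjusted p between 0.05 and 0.06. At an adjusted p under 0.1 18 genes were left without KCL-HO-1i/gemcitabine replicate 2 and 20 without KCL-HO-1i/5-FU replicate 3. Both of these libraries and KCL-HO-1i replicate 3, which also stood apart, had mouse code 70, as did KCL-HO-1i replicate 2. Only libraries with KCL-HO-1i had that code. The remaining library with KCL-HO-1i that stood apart, KCL-HO-1i replicate 4, had code 69. Without the 4 libraries that stood apart, 591 genes were higher (4.29%) and 769 lower (5.58%) at an unadjusted p under 0.05, so that the larger number lay on the lower side, and 1 gene passed an adjusted p under 0.05. Without all 6 libraries 470 genes were higher (3.42%) and 532 lower (3.88%), and 2 passed, Hmox1 and Slc40a1, while the adjusted p of Hcls1 was 0.196 and that of Lcp2, Gemin5, Slc11a1, Lilr4b and Spic between 0.58 and 0.615.

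Hmox1 (chromosome 8, 75093618 to 75100593, GRCm38.p6), which encodes the enzyme that KCL-HO-1i inhibits, rose. It was measured at 12.1 to 84.7 CPM (median 35.2) in the 15 libraries without KCL-HO-1i and at 47.8 to 1198 CPM (median 149) in the 15 with it. In 13 of the 15 it was above the highest value without KCL-HO-1i, and the ranges overlapped through KCL-HO-1i replicate 5 and KCL-HO-1i/5-FU replicate 2. The average log2 fold change was 2.42 (SE 0.38, edgeR adjusted p = 0.0113), with 1.63 in the vehicle, 3.20 in the 5-FU and 2.44 in the gemcitabine background. It was 1.68 without the 4 libraries (adjusted p = 0.0534) and 1.69 without the 6 (adjusted p = 0.0318).

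Slc40a1, ferroportin, the only known cellular iron exporter, rose as well (chromosome 1, 45908070 to 45926532). Levels ran from 8.18 to 26.8 CPM (median 16.0) without KCL-HO-1i and from 20.2 to 250 CPM (median 40.5) with it. By group the mean was 13.2 ± 3.27 CPM in vehicle and 32.6 ± 12.4 in KCL-HO-1i, 21.5 ± 6.43 in 5-FU and 79.3 ± 96.0 in KCL-HO-1i/5-FU, and 16.8 ± 4.72 against 41.8 ± 7.65 for gemcitabine without and with KCL-HO-1i (SD, n = 5 each). The 5-FU combination held the library at 250 CPM, replicate 3, the same that was highest for Hmox1. Every library with KCL-HO-1i lay above the mean of its background, the log2 fold change was 1.5 (SE 0.26, edgeR adjusted p = 0.0149), and Slc40a1 was the gene that passed without the 4 libraries (1.00, adjusted p = 0.00743). It also passed without the 6 (0.96, adjusted p = 0.0197), where Hmox1 was the other gene to pass.

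Slc11a1, NRAMP1, which moves iron and manganese out of the phagosome of macrophages, was the other iron transporter that rose (chromosome 1, 74375014 to 74386057). Its values were 1.23 to 11.4 CPM (median 4.30) without and 6.19 to 39.1 CPM (median 13.3) with KCL-HO-1i, and 9 of the 15 libraries with it exceeded all of those without. The log2 fold change was 1.69 (SE 0.30, edgeR adjusted p = 0.0213).

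Other genes of iron handling moved less. The ferritin heavy chain gene Fth1 was at 734 to 2520 CPM (median 1880) without and 1281 to 7982 CPM (median 2631) with KCL-HO-1i, with a log2 fold change of 0.80 (SE 0.21, edgeR adjusted p = 0.0525), and the ferrireductase Steap4 had 0.83 (SE 0.22, adjusted p = 0.0526). Ireb2, an RNA-binding regulator of iron genes, had -0.12 (SE 0.04, adjusted p = 0.102). Of 19 iron genes 18 were tested, hepcidin (Hamp) being at 0 reads in all 30 libraries. At an unadjusted p under 0.05 6 were higher and 4 lower, and DESeq2 called 6 higher and 1 lower at an adjusted p under 0.05. Log2 fold changes over the list ran from -0.96 to 1.69. Their median was 0.17, which was 0.05 without the 4 libraries and -0.03 without the 6.

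The rest of the heme pathway was uneven. Hmox2, the constitutive heme oxygenase, was at 55.1 to 89.5 CPM (median 72.0) without and 57.7 to 83.6 CPM (median 76) with KCL-HO-1i, a log2 fold change of 0.00 (SE 0.06). Of both biliverdin reductases Blvra had -0.02 (SE 0.08) and Blvrb 0.47 (SE 0.12, edgeR adjusted p = 0.0525), the latter with 14 of 15 libraries above the mean of their background. Slc48a1, which carries heme out of lysosomes, had 0.51 (SE 0.14, adjusted p = 0.0556, 15 of 15 libraries), and Hp, the haemoglobin-binding haptoglobin, had 2.16 (SE 0.61, adjusted p = 0.0560) but 0.69 without the 4 libraries. Of 12 tested genes for heme breakdown and transport 6 were higher and 0 lower at an unadjusted p under 0.05, with a median of 0.40. Without the 4 libraries 3 were higher and 1 lower, with a median of 0.21, and without the 6 the median was 0.08. For heme synthesis (11 genes) 1 was higher and 2 lower, beside 13.7% and 9.22% of all genes, with a median of -0.08. Alas1, the rate-limiting enzyme outside red cells, was among the lower ones, at -0.38 (SE 0.14, edgeR adjusted p = 0.103).

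NRF2 and BACH1 targets, which protect against oxidants and electrophiles, had a median log2 fold change of 0.19 over 25 genes, and 22 of them had a positive sign. At an unadjusted p under 0.05 7 were higher and 0 lower. The median was 0.06 without the 4 libraries, with 4 higher, 0.05 without the 6 and 0.06 with the white adipocyte score as a covariate. Srxn1, which repairs oxidised peroxiredoxins, was at 16.0 to 36.4 CPM (median 25.6) without and 22.5 to 88.7 CPM (median 32.7) with KCL-HO-1i. Its log2 fold change was 0.60 (SE 0.14, edgeR adjusted p = 0.0525), with the highest matched difference, 0.90, in the 5-FU background. The glutathione transferase Gstm1 had 1.15 (SE 0.27, adjusted p = 0.0525), the carbonyl reductase Cbr3 0.75 (SE 0.19, adjusted p = 0.0525) and the glutathione synthesis gene Gclm 0.30 (SE 0.10, adjusted p = 0.0815). Among 12 genes of heat shock and metal binding 1 was lower and 0 higher at an unadjusted p under 0.05, beside 9.22% and 13.7% of all genes. The lower one was Hsph1, a chaperone, at -0.33 (SE 0.16).

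**Figure D2:**
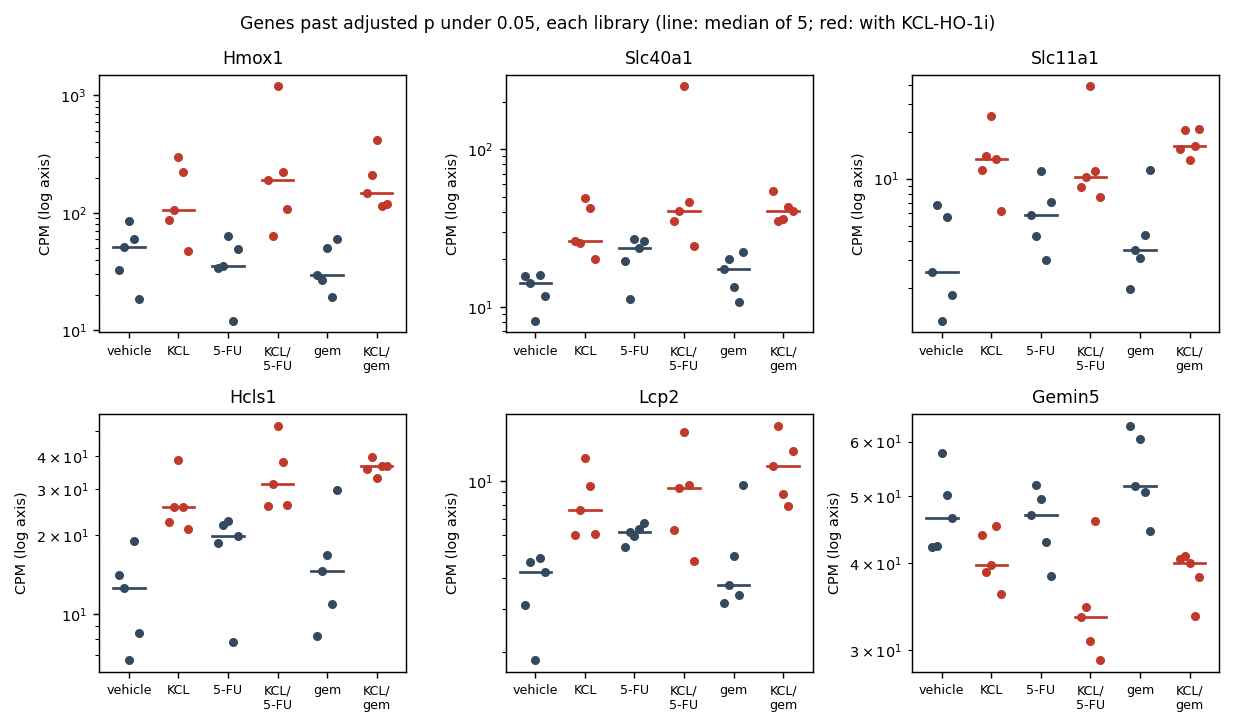
CPM (vertical log axis) of 6 of the 8 genes past an adjusted p under 0.05, in each library by group; points are libraries, lines are medians of 5, and red marks tumours that received KCL-HO-1i. The 5 rising genes have higher medians in each group with KCL-HO-1i than in its match, and Gemin5 has lower ones.

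Of the other 4 genes that rose, Hcls1 and Lcp2 encode adaptor proteins that carry receptor signals in blood cells. Hcls1 (chromosome 16, 36934983 to 36963214) was at 6.68 to 29.6 CPM (median 14.6) without and 21.0 to 52.3 CPM (median 33.1) with KCL-HO-1i, with 15 of 15 libraries above the mean of their background. Its log2 fold change was 1.08 (SE 0.18, edgeR adjusted p = 0.0113) and the 3 matched differences, 1.13, 0.93 and 1.18, were close to each other. Lcp2 (chromosome 11, 34046928 to 34092281) was at 1.85 to 9.64 CPM (median 4.83) without and 4.70 to 16.9 CPM (median 9.34) with it (log2 fold change 0.99, SE 0.19, adjusted p = 0.0313).

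Lilr4b, an immunoglobulin-like receptor of myeloid cells, and Spic, a transcription factor of the macrophages that recycle red cell iron in the spleen, rose from few reads. Lilr4b had 27 reads in all over the 15 libraries without KCL-HO-1i and 337 over the 15 with it, and its highest level was 0.667 CPM without against a median of 1.19 CPM with. It has a near-identical neighbour, Lilrb4a, which did not pass the filter, so that reads may have been split between them. Spic had 33 reads without and 238 with KCL-HO-1i, and the median was 0.0816 CPM against 1.04 CPM. The edgeR adjusted p was 0.0240 for Lilr4b and 0.0275 for Spic, and no fold is given for either, since 3 reads corresponded to between 0.215 and 0.302 CPM. The highest level of Spic without KCL-HO-1i was 0.82 CPM. Both genes passed the expression filter, with its minimum count of 10, only through libraries with KCL-HO-1i, so that their adjusted p is not independent of the filter.

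The next 7 genes by p with the same sign in all 3 backgrounds and at least 1 CPM did not pass an adjusted p under 0.05. Bin2, a membrane-bending protein of blood cells, was at 1.67 to 11.1 CPM (median 5.77) without and 6.24 to 19.0 CPM (median 12) with KCL-HO-1i (log2 fold change 1.02, SE 0.21, edgeR adjusted p = 0.0520). Tbxas1 and Hpgds, which make thromboxane A2 and prostaglandin D2, had log2 fold changes of 1.53 (SE 0.31) and 1.07 (SE 0.22), each with an adjusted p of 0.0520. The matrix proteoglycan Spock2 (1.34), the lysosomal glycoprotein Creg1 (0.52), Tmem8 (1.47) and the export pump Abcc3 (1.11) followed, with adjusted p between 0.0522 and 0.0525. Of the mouse codes, code 74 alone held libraries that differed in KCL-HO-1i and not in chemotherapy, 5-FU replicate 5 and KCL-HO-1i/5-FU replicates 2 and 4. There all 24 values of the 12 genes with the smallest p on this side were above that of 5-FU replicate 5. What a code stands for is not stated, and the genes had been picked from the same libraries.

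**Figure D3:**
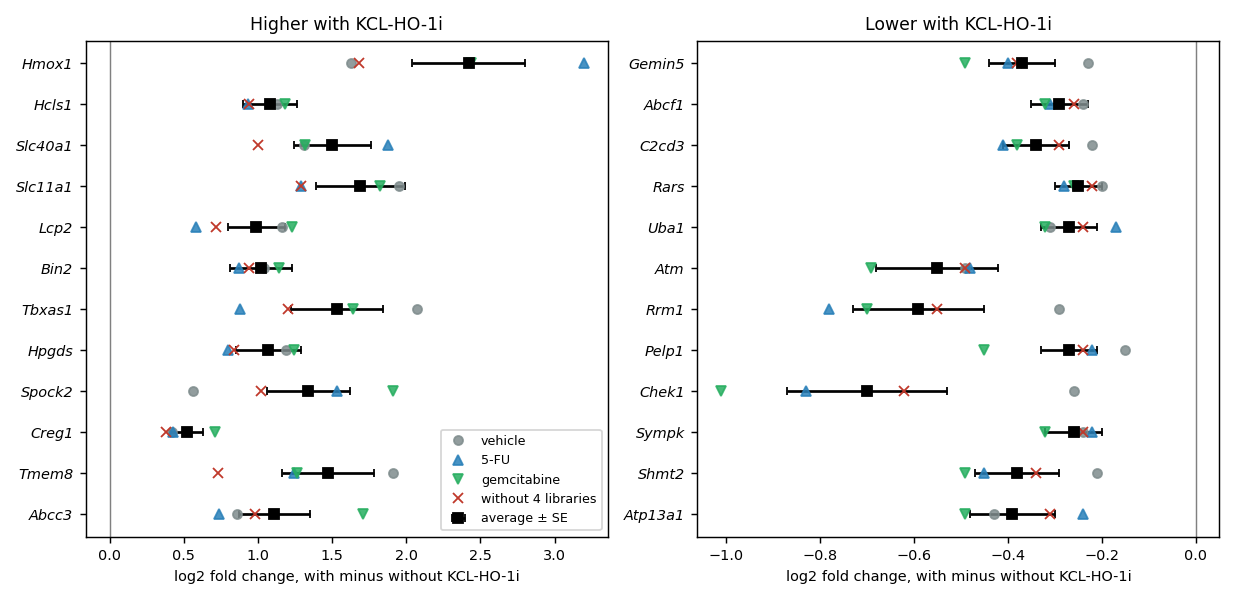
Log2 fold change with minus without KCL-HO-1i (horizontal axis) of the 12 genes with the smallest p on each side among those with the same sign in 3 backgrounds; squares are the average with its SE, circles and triangles the matched differences in the vehicle, 5-FU and gemcitabine backgrounds, and crosses the average without 4 libraries. Averages on the right, for lower genes, lie between -0.70 and -0.25, and those on the left between 0.52 and 2.42.

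Macrophage lineage genes were higher as a group. All 22 were tested, each had a positive log2 fold change, and 17 were higher and 0 lower at an unadjusted p under 0.05, with a median of 0.77. Marco, a scavenger receptor, had 31 reads in all without and 355 with KCL-HO-1i (edgeR adjusted p = 0.0558), with a median of 0.226 CPM with it, and it did not pass the filter without the 4 libraries. Marco and Spic, both in this list, passed the filter only through libraries with KCL-HO-1i. The complement genes C1qb and C1qc, made mostly by macrophages, had 0.79 (SE 0.22, edgeR adjusted p = 0.0558) and 0.80 (SE 0.23, adjusted p = 0.0562). C1qb was at 11.9 to 125 CPM (median 61.9) without and 69.5 to 168 CPM (median 99.6) with KCL-HO-1i, so that the lowest library with it was above the median of those without. The list had a median of 0.54 and 8 genes higher at an unadjusted p under 0.05 without the 4 libraries, and 0.37 and 6 without the 6.

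Genes of LYVE-1 perivascular and resident macrophages had a median log2 fold change of 1.12 over 14 genes. Of these 11 were higher and 0 lower at an unadjusted p under 0.05, beside 13.7% and 9.22% of all genes. The chemokine Pf4 was at 0.388 to 8.15 CPM (median 2.11) without and 1.96 to 32.1 CPM (median 5.6) with KCL-HO-1i, a log2 fold change of 2.07 (SE 0.46, edgeR adjusted p = 0.0525). Maf, a transcription factor of resident macrophages, had 1.51 (SE 0.38, adjusted p = 0.0525), the selenium carrier Selenop 0.70 (SE 0.20, adjusted p = 0.0567) and the clotting factor F13a1 1.69 (SE 0.51, adjusted p = 0.0650). Lyve1 itself had 0.70 (SE 0.70, adjusted p = 0.591), with 3.12 in the vehicle and -1.58 in the 5-FU background. Its sign turned to negative without the 4 libraries and without the 6. The list median was 2.26, 0.36 and 1.08 in the vehicle, 5-FU and gemcitabine backgrounds. It was 0.43 with 4 genes higher without the 4 libraries, and 0.35 with 2 higher without the 6. With the mouse code as a covariate it was 2.30, and with the mean log2 level of the macrophage list as a covariate -0.18. That macrophage list shares Mrc1 and Cd163 with this one.

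Leukocyte signalling adaptors and kinases had 19 of 24 genes higher and 0 lower at an unadjusted p under 0.05, and a median of 0.72. Was, which drives actin branching in blood cells, was at 0.879 to 5.36 CPM (median 2.71) without and 3.05 to 9.60 CPM (median 5.12) with KCL-HO-1i (log2 fold change 0.85, SE 0.22, edgeR adjusted p = 0.0525). The kinase Btk had 0.97 (SE 0.25, adjusted p = 0.0525). Lcp1, an actin bundler that epithelial tumour cells can make too, had -0.09 (SE 0.16). The list median was 0.51 and 13 genes were higher without the 4 libraries, and 0.39 and 9 without the 6. It was 1.24 with the mouse code as a covariate.

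Immunoglobulin-like and Fc receptors of leukocytes had 11 of 14 tested genes higher and 0 lower, with a median of 0.97. It was 0.58 with 6 higher without the 4 libraries, 0.43 with 3 higher without the 6 and 1.86 with the mouse code as a covariate. Clec4n, the C-type lectin dectin-2, was at 2.46 to 13.4 CPM (median 6.69) without and 7.17 to 136 CPM (median 13.4) with KCL-HO-1i (log2 fold change 1.43, SE 0.32, edgeR adjusted p = 0.0525), above the mean of its background in 15 of 15 libraries. Fcgr3 and Fcgr4, receptors for immunoglobulin G, had 0.93 (SE 0.25, adjusted p = 0.0532) and 1.04 (SE 0.32, adjusted p = 0.0662). Complement genes had 13 of 16 higher and 0 lower and a median of 1.05, against 4 higher and 0.53 without the 4 libraries and 4 and 0.38 without the 6. Among them the C5a receptor C5ar1 had 1.36 (SE 0.33, adjusted p = 0.0525) and factor B, Cfb, -0.13 (SE 0.33).

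Chemokine ligands had 8 of 20 tested genes higher and 1 lower at an unadjusted p under 0.05, beside 13.7% and 9.22% of all genes. Without the 4 libraries 2 were higher and 0 lower, beside 4.29% and 5.58% of all genes. Cxcl14, made by fibroblasts and epithelium, was at 2.20 to 46.1 CPM (median 16.0) without and 8.93 to 87.0 CPM (median 35.5) with KCL-HO-1i (log2 fold change 1.16, SE 0.33, edgeR adjusted p = 0.0582), and the neutrophil chemokine Cxcl5 had 47 reads in all without and 388 with KCL-HO-1i (adjusted p = 0.0593), a median of 0.445 CPM with it. The lower one was Ccl28, a mucosal chemokine, at -0.83 (SE 0.39, adjusted p = 0.200). Of chemokine receptors 5 of 11 were higher, or 2 without the 4 libraries, and Ccr1 and Cx3cr1, both receptors of monocytes and macrophages, had 0.76 (SE 0.21) and 0.77 (SE 0.22), each with an adjusted p of 0.0558. The costimulator Cd86 had 0.72 (SE 0.20, adjusted p = 0.0560, 15 of 15 libraries) and Cd274, which encodes PD-L1, 1.02 (SE 0.35, adjusted p = 0.0931) but 0.13 without the 4 libraries.

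Lymphocyte genes were at the edge of detection. The 19 T and NK cell genes found in the table summed to between 6.07 and 41.6 CPM without and between 8.55 and 38.2 CPM with KCL-HO-1i, 13 were tested, and 0 were higher or lower at an unadjusted p under 0.05 in edgeR. Cd8a had -0.49 (SE 0.37, edgeR adjusted p = 0.452) and Cd4 0.55 (SE 0.40, adjusted p = 0.438). MHC class I genes (0 of 12) and interferon-stimulated genes (0 of 15, median -0.37) had no gene at an unadjusted p under 0.05 on either side. DESeq2 called 0 genes of these lists at an adjusted p under 0.05 as well. Rsad2, an antiviral gene, ranged widely, with 1.19 to 42.9 CPM without and 2.49 to 39.3 CPM with KCL-HO-1i (log2 fold change -0.63, SE 0.45, adjusted p = 0.428).

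**Figure D4:**
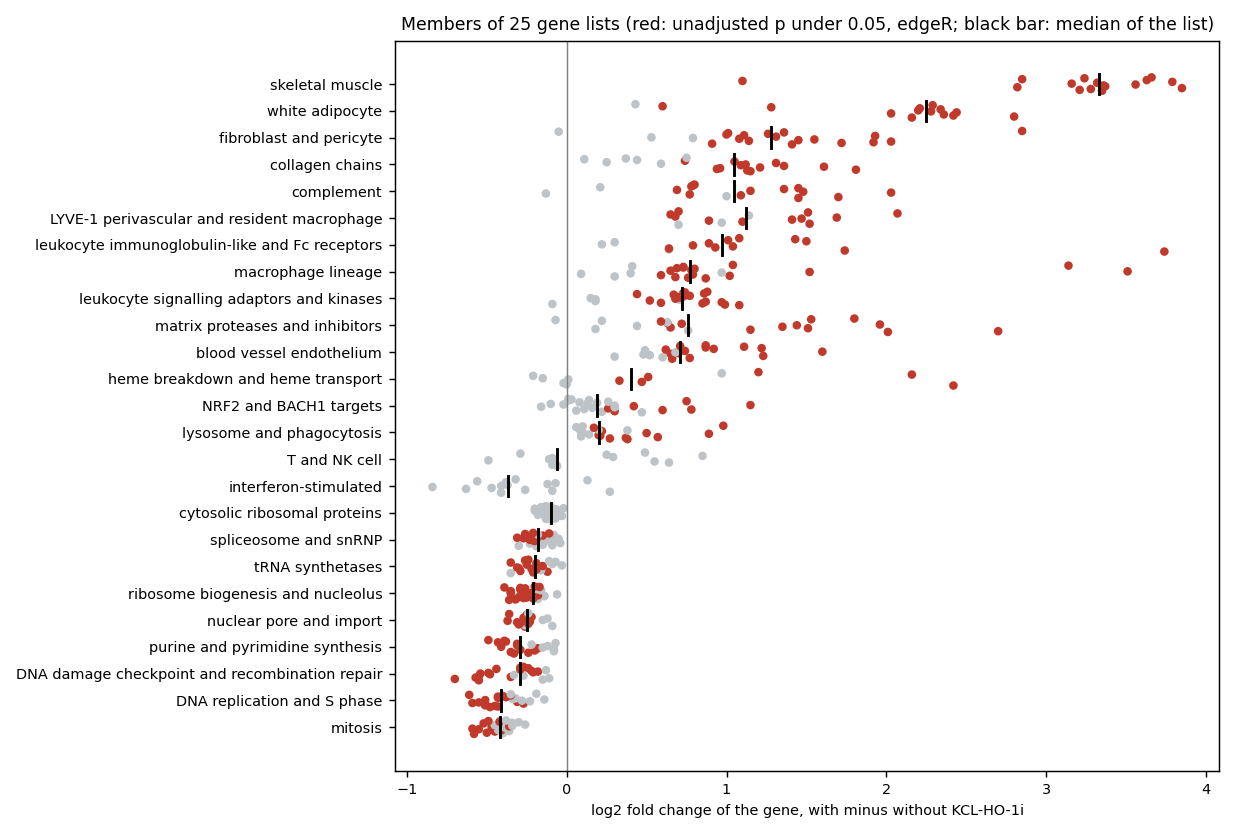
Log2 fold change with minus without KCL-HO-1i (horizontal axis) of each tested member of 25 gene lists (rows); points are genes, red those at an unadjusted p under 0.05 in edgeR, and black bars are list medians. Lists of stroma and macrophages lie right of 0 and spread widely, whereas those of replication, repair and RNA processing lie left of 0 in a narrow band.

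The promoters of these lists were searched for short letter patterns that are known to bind factors of the cell types and pathways above. RefSeq promoters (GRCm38.p6, 250 bases before the start) were at hand for 10698 of the 13663 tested genes, Hmox1 and Slc40a1 not among them, and were searched on both strands for letters chosen with the sequences in view. The ETS letters AGGAAGT, bound by PU.1 of myeloid cells and by other ETS factors, were in 40.0% of 15 macrophage lineage promoters and 35.3% of 17 promoters of leukocyte signalling genes, against 7.23% of all tested genes and 11.1% of the 660 higher ones at an adjusted p under 0.1. The letters TGAGTCA, shared by AP-1 sites and antioxidant response elements, were in 13.6% of 22 promoters of NRF2 and BACH1 targets and in 3.19% of all tested genes. That is 3 promoters, and these letters were in a larger share of the skin epidermis (57.1%), matrix protease (33.3%) and interferon-stimulated (23.1%) promoters. The ETS letters were also in 38.5% of neutrophil and 33.3% of matrix protease promoters. A match is not a binding site. Capitals mark the matches of either kind in the promoters of Hcls1 (chr16:36934733-36934982, plus strand), the called leukocyte adaptor, and Srxn1 (chr2:152105274-152105523, plus strand).
Hcls1: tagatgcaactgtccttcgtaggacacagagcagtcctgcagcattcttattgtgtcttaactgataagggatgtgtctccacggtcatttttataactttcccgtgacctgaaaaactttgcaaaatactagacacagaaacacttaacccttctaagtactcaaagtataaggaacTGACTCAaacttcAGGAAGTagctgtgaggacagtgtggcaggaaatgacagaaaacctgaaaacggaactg
Srxn1: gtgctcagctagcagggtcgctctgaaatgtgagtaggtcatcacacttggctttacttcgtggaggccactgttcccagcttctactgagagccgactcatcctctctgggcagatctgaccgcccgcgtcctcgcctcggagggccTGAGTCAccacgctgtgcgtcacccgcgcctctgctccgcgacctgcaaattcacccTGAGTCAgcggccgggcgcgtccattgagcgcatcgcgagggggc

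Stromal and vascular genes were higher with KCL-HO-1i, and the counts dropped without the 4 libraries. Fibroblast and pericyte genes had 17 of 20 higher and 0 lower at an unadjusted p under 0.05 with a median of 1.28, collagen chains 13 of 19 and 0 with 1.05, and endothelial genes 14 of 20 and 0 with 0.71. Without the 4 libraries the numbers higher were 3, 0 and 0, and the medians 0.56, 0.32 and -0.02. Col5a2, a fibrillar collagen, was at 15.3 to 161 CPM (median 42.2) without and 18.6 to 635 CPM (median 90.2) with KCL-HO-1i (log2 fold change 1.61, SE 0.42, edgeR adjusted p = 0.0525) and at 0.66 without the 4 libraries. Thy1, a fibroblast surface protein, had 1.14 (SE 0.30, adjusted p = 0.0532) and the tight junction gene Cldn5 of endothelium 1.6 (SE 0.42, adjusted p = 0.0525).

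Matrix proteases and their inhibitors had 13 of 19 tested genes higher and 0 lower, with a median of 0.76, and without the 4 libraries 6 higher and a median of 0.34. Mmp3, stromelysin-1, was at 0.446 to 37.8 CPM (median 4.08) without and 0.783 to 140 CPM (median 18.5) with KCL-HO-1i, a log2 fold change of 2.7 (SE 0.61, edgeR adjusted p = 0.0525) with matched differences of 2.85, 2.73 and 2.53. The ranges overlapped, with 5 of the 15 libraries above the highest without KCL-HO-1i. Mmp11, a fibroblast protease, had 1.15 (SE 0.26, adjusted p = 0.0525) and the gelatinase Mmp2 2.01 (SE 0.50, adjusted p = 0.0525).

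Fat and muscle genes had the largest medians and the least even ones. White adipocyte genes had a median log2 fold change of 2.25 over 14 genes, 3.63, 0.15 and 2.36 in the vehicle, 5-FU and gemcitabine backgrounds, and 0.78 without the 4 libraries. Skeletal muscle genes had 3.33 over 16 genes, all 16 higher at an unadjusted p under 0.05, yet 0 had the same sign in 3 backgrounds, since the background medians were 6.98, -2.22 and 5.56. Without the 4 libraries the muscle median was 0.56 and 0 of the 16 genes were at an unadjusted p under 0.05. The white adipocyte sum ran from 362 to 20836 CPM with KCL-HO-1i and from 357 to 5729 CPM without. With the white adipocyte score as a covariate the macrophage median was 0.44, and the part of fat and muscle in the other rising lists was not tested further.

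The genes that were lower with KCL-HO-1i moved by less and varied less. Gemin5 (chromosome 11, 58120001 to 58168554), which recognises small nuclear RNAs for the SMN complex that loads the splicing machinery, was the gene that fell. It was at 38.4 to 63 CPM (median 49.5) without and 29.0 to 46.1 CPM (median 38.9) with KCL-HO-1i, and all 15 libraries with it were at or below the median of those without. By group the mean was 47.9 ± 6.46 and 40.8 ± 3.80 CPM in vehicle and KCL-HO-1i, 46.0 ± 5.37 and 34.8 ± 6.66 in 5-FU and KCL-HO-1i/5-FU, and 54.2 ± 7.66 against 38.7 ± 3.04 for gemcitabine without and with KCL-HO-1i (SD, n = 5 each). The log2 fold change was -0.37 (SE 0.07, edgeR adjusted p = 0.0275). It was -0.38 without the 4 libraries (adjusted p = 0.281) and -0.05 (SE 0.15) once the mouse code was a covariate.

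The other members of the SMN and gemin complex did not pass the adjusted threshold. Gemin6 had -0.38 (SE 0.11, edgeR adjusted p = 0.0558), the helicase Ddx20 -0.26 (SE 0.09, adjusted p = 0.0811) and Smn1 -0.21 (SE 0.07, adjusted p = 0.0828). All 9 genes had a negative sign, 4 at an unadjusted p under 0.05, and the median was -0.10. Smn1 was at 22.5 to 45.3 CPM (median 29.5) without and 22.1 to 29.9 CPM (median 27.8) with KCL-HO-1i, so that the levels without it reached higher while the lowest were alike.

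Of the 12 genes with the smallest p on the lower side, Abcf1, a translation factor, was at 203 to 318 CPM (median 236) without and 156 to 229 CPM (median 198) with KCL-HO-1i. All 15 libraries with KCL-HO-1i lay under their background's mean, and the matched differences were -0.24, -0.31 and -0.32 (average -0.29, SE 0.06, edgeR adjusted p = 0.0522). Rars, the arginyl-tRNA synthetase, was at 120 to 172 CPM (median 137) without and 96.4 to 133 CPM (median 117) with KCL-HO-1i (-0.25, SE 0.05, adjusted p = 0.0522), also in 15 of 15 libraries. Uba1, which starts the ubiquitin cascade, had -0.27 (SE 0.06), the centriole gene C2cd3 -0.34 (SE 0.07), the nucleolar coregulator Pelp1 -0.27 (SE 0.06), Sympk of mRNA 3' end processing -0.26 (SE 0.06) and the transporter Atp13a1 of the endoplasmic reticulum -0.39 (SE 0.09), with adjusted p between 0.0522 and 0.0525. Under mouse code 74, in which libraries differed in KCL-HO-1i and not in chemotherapy, 13 of 24 values of the 12 genes were below that of 5-FU replicate 5 and 11 were above. These genes too had been picked from the same libraries, and values of different genes in a library are not replicates. In its group 5-FU replicate 5 was the lowest library for Rrm1 (70.5 CPM) and Atm (21.3 CPM), so it is an uneven reference.

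DNA replication genes were lower as a group. All 24 had a negative sign, 17 were lower and 0 higher at an unadjusted p under 0.05, and 9 at an adjusted p under 0.1, with a median of -0.41. Rrm1, the large subunit of ribonucleotide reductase and a target of gemcitabine, was at 70.5 to 276 CPM (median 143) without and 54.0 to 146 CPM (median 102) with KCL-HO-1i. Its average was -0.59 (SE 0.14, edgeR adjusted p = 0.0525), with -0.29, -0.78 and -0.70 in the vehicle, 5-FU and gemcitabine backgrounds. The replicative helicase subunits Mcm7 and Mcm4 had -0.51 (SE 0.15, adjusted p = 0.0593) and -0.45 (SE 0.13, adjusted p = 0.0632), and the polymerase Pola1 -0.38 (SE 0.12, adjusted p = 0.0731). Mcm7 had -0.07 in the vehicle and -1.0 in the 5-FU background.

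The matched differences were nearer 0 in the vehicle background. The medians of the replication list were -0.07, -0.62 and -0.55 in the vehicle, 5-FU and gemcitabine backgrounds, those of mitosis genes -0.04, -0.62 and -0.60, and those of damage checkpoint and repair genes -0.10, -0.36 and -0.50, a contrast that was not tested for the lists. By median library the summed replication genes were at 1320 CPM in vehicle and 1087 in KCL-HO-1i, 1278 in 5-FU and 786 in KCL-HO-1i/5-FU, and 1390 in gemcitabine and 1042 in KCL-HO-1i/gemcitabine. The highest libraries were gemcitabine replicates 3 and 1 with 2323 and 1864 CPM, both kept when the 4 or the 6 libraries were left out. The library 5-FU replicate 5 had 552 CPM, near the lowest with KCL-HO-1i, 515 CPM. Without the 4 libraries the replication median was -0.36 and 13 genes were lower, and without the 6 it was -0.32 and 6 were lower, but it was -0.01 once the mouse code was a covariate.

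Mitosis genes had a median of -0.42, with 11 of 24 lower and 0 higher at an unadjusted p under 0.05 and 0 at an adjusted p under 0.1. Mki67, the proliferation antigen, was at 46.2 to 477 CPM (median 150) without and 30.0 to 230 CPM (median 113) with KCL-HO-1i, at -0.58 (SE 0.24, edgeR adjusted p = 0.147). Ndc80 of the kinetochore and the spindle checkpoint kinase Bub1b had -0.52 (SE 0.20, adjusted p = 0.127) and -0.55 (SE 0.23, adjusted p = 0.147). In the absence of the 4 libraries 2 genes of this list were lower, with a median of -0.39, and in that of the 6 0 were, with -0.38. The median turned to 0.31 once the mouse code was a covariate. Gemcitabine replicates 1 and 3, kept when the 4 or the 6 were left out, summed to 2335 and 2823 CPM for this list. Elsewhere the sum was at most 1504 CPM (vehicle replicate 3). By median library it was 1354 CPM in gemcitabine and 950 CPM in KCL-HO-1i/gemcitabine.

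Genes of the DNA damage checkpoint and of recombination repair were less variable. Of 21 tested 16 were lower and 0 higher at an unadjusted p under 0.05, 10 at an adjusted p under 0.1, and the median was -0.29. It was -0.30 without the 4 libraries, with 15 lower, and -0.28 without the 6, with 9 lower, but turned to 0.11 once the mouse code was a covariate. The highest sums of this list were again in gemcitabine replicates 3 and 1, 884 and 849 CPM, which both settings kept. Chek1, the checkpoint kinase, was at 4.00 to 17.1 CPM (median 10.1) without and 3.96 to 11.8 CPM (median 6.50) with KCL-HO-1i, at -0.70 (SE 0.17, edgeR adjusted p = 0.0525). Atm, which senses double-strand breaks, was at 21.3 to 63.9 CPM (median 33.5) without and 15.5 to 37.0 CPM (median 21.5) with it, at -0.55 (SE 0.13, adjusted p = 0.0525). The mismatch repair gene Msh6 had -0.27 (SE 0.08, adjusted p = 0.0616). Of 16 p53 targets 3 were higher at an unadjusted p under 0.05, beside 13.7% of all genes, and 0 were lower. The p53 list median was 0.03, and 1 gene was higher without the 4 libraries. Sesn1, an inhibitor of growth signalling, had 0.57 (SE 0.16, edgeR adjusted p = 0.0570).

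The CCAAT letters, bound by NF-Y, and the E2F letters TTTNNCGC were searched in the same promoters. CCAAT was in 80.0% of 20 mitosis promoters, 61.1% of 18 replication promoters and 57.1% of 14 checkpoint and repair promoters, against 36.1% of all tested genes and 40.3% of the 330 lower ones at an adjusted p under 0.1. The E2F letters were in 27.8% of the replication and 21.4% of the checkpoint promoters, against 6.95% of all tested genes and 12.1% of the lower ones. Other lists held these letters as often, with CCAAT in 83.3% of cholesterol synthesis, 75% of integrated stress and 70% of MHC class I promoters and the E2F letters in 30% of the last. Capitals mark both kinds of match, or their reverse, in 3 promoters of lower genes: Rrm1 (chr7:102441445-102441694, plus strand), Mcm7 (chr5:138171884-138172133, minus strand) and Bub1b (chr2:118597961-118598210, plus strand).
Rrm1: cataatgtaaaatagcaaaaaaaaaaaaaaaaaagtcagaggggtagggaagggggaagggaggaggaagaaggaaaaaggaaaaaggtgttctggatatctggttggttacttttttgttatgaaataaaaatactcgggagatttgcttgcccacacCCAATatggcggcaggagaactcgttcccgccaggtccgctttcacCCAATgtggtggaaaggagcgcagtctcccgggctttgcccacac
Mcm7: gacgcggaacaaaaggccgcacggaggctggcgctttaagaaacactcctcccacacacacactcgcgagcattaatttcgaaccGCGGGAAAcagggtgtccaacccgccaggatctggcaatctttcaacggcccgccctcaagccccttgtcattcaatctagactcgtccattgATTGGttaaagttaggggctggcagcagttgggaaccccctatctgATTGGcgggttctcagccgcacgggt
Bub1b: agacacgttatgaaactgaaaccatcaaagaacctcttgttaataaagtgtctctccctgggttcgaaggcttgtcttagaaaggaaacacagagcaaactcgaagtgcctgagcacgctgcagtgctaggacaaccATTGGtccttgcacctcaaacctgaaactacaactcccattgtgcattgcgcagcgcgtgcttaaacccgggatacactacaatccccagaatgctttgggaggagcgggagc

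Nucleotide supply and the making of ribosomes and proteins were lower in small steps. Purine and pyrimidine synthesis genes had 13 of 19 lower and 0 higher at an unadjusted p under 0.05 and a median of -0.29. Shmt2, which feeds carbon units from serine in mitochondria, was at 63.6 to 175 CPM (median 96.0) without and 61.0 to 99.7 CPM (median 80.5) with KCL-HO-1i, at -0.38 (SE 0.09, edgeR adjusted p = 0.0525), and all 15 libraries lay under their background's mean. Its cytosolic form Shmt1 had -0.43 (SE 0.11), the purine genes Ppat and Atic -0.33 (SE 0.09) and -0.29 (SE 0.08), each with an adjusted p of 0.0525. Asns, asparagine synthetase, and Phgdh, which starts serine synthesis, both ATF4 targets, were the 2 genes of 16 in the integrated stress list that were lower at an unadjusted p under 0.05 (0 higher, list median -0.11, beside 9.22% of all genes lower), with -0.53 (SE 0.15, adjusted p = 0.0558) and -0.58 (SE 0.18, adjusted p = 0.0652).

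Ribosome biogenesis genes had 23 of 30 lower and 0 higher, with a median of -0.21. This was 16 lower with a median of -0.20 without the 4 libraries and 14 with -0.17 without the 6, and the median was -0.10 once the mouse code was a covariate. Gemcitabine replicates 1 and 3, left out in neither setting, summed to 4858 and 5711 CPM for this list, against at most 3955 CPM elsewhere (vehicle replicate 3). By median library the sum was 3426 CPM in gemcitabine and 3205 CPM in KCL-HO-1i/gemcitabine. Utp15 of the small subunit processome was at 27.7 to 54.0 CPM (median 36.8) without and 27.9 to 35.3 CPM (median 32.5) with KCL-HO-1i (-0.25, SE 0.06, edgeR adjusted p = 0.0525). Pes1 had -0.18 (SE 0.05, adjusted p = 0.0556), Heatr1 -0.39 (SE 0.11) and Mybbp1a -0.29 (SE 0.08), each with an adjusted p of 0.0558. In contrast 0 of 27 cytosolic ribosomal protein genes were at an unadjusted p under 0.05 in edgeR, with a median of -0.10.

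Transfer RNA synthetases had 14 of 20 lower and 0 higher with a median of -0.20, nuclear pore and import genes 14 of 19 and 0 with -0.25, and spliceosome genes 12 of 26 and 0 with -0.18. Kars, the lysyl-tRNA synthetase, had -0.30 (SE 0.08, edgeR adjusted p = 0.0525) and Vars, that of valine, -0.35 (SE 0.10, adjusted p = 0.0556). The importin Ipo7 was at 132 to 289 CPM (median 195) without and 111 to 209 CPM (median 156) with KCL-HO-1i (-0.36, SE 0.09, adjusted p = 0.0525), and Nup188 of the pore scaffold had -0.23 (SE 0.06, adjusted p = 0.0525). The splicing factors Sf3a1 and Prpf8 had -0.23 (SE 0.06) and -0.31 (SE 0.08), each with an adjusted p of 0.0525. In these lists 12, 14 and 8 genes were lower without the 4 libraries and 10, 11 and 5 without the 6, and the medians were -0.13, 0.00 and -0.18 once the mouse code was a covariate. For the nuclear pore and spliceosome lists the highest sums were in gemcitabine replicate 3 (3395 and 6475 CPM) and replicate 1 (2947 and 5635 CPM), kept in both settings.

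Metabolic lists were mixed. Cholesterol synthesis and uptake had 5 of 19 genes lower and 1 higher, with Dhcr7, the last step of synthesis, at -0.36 (SE 0.10, edgeR adjusted p = 0.0562) and the cholesterol exporter Abca1 at 0.46 (SE 0.17, adjusted p = 0.114). Nuclear genes of oxidative phosphorylation had 0 of 22 at an unadjusted p under 0.05, and glycolysis 1 of 15 lower and 0 higher, beside 9.22% and 13.7% of all genes. Of the 13 genes of the mitochondrial genome 8 were higher, with mt-Nd2 at 0.63 (SE 0.24, adjusted p = 0.115) but 0.16 without the 4 libraries. Luminal markers had 1 of 18 higher and 2 lower at an unadjusted p under 0.05, beside 13.7% and 9.22% of all genes, with a median of -0.11. The adhesion gene Cdh1 was among the lower ones, at -0.24 (SE 0.09, edgeR adjusted p = 0.123). Without the 4 libraries 0 luminal markers were lower and the median was 0.01.

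**Figure D5:**
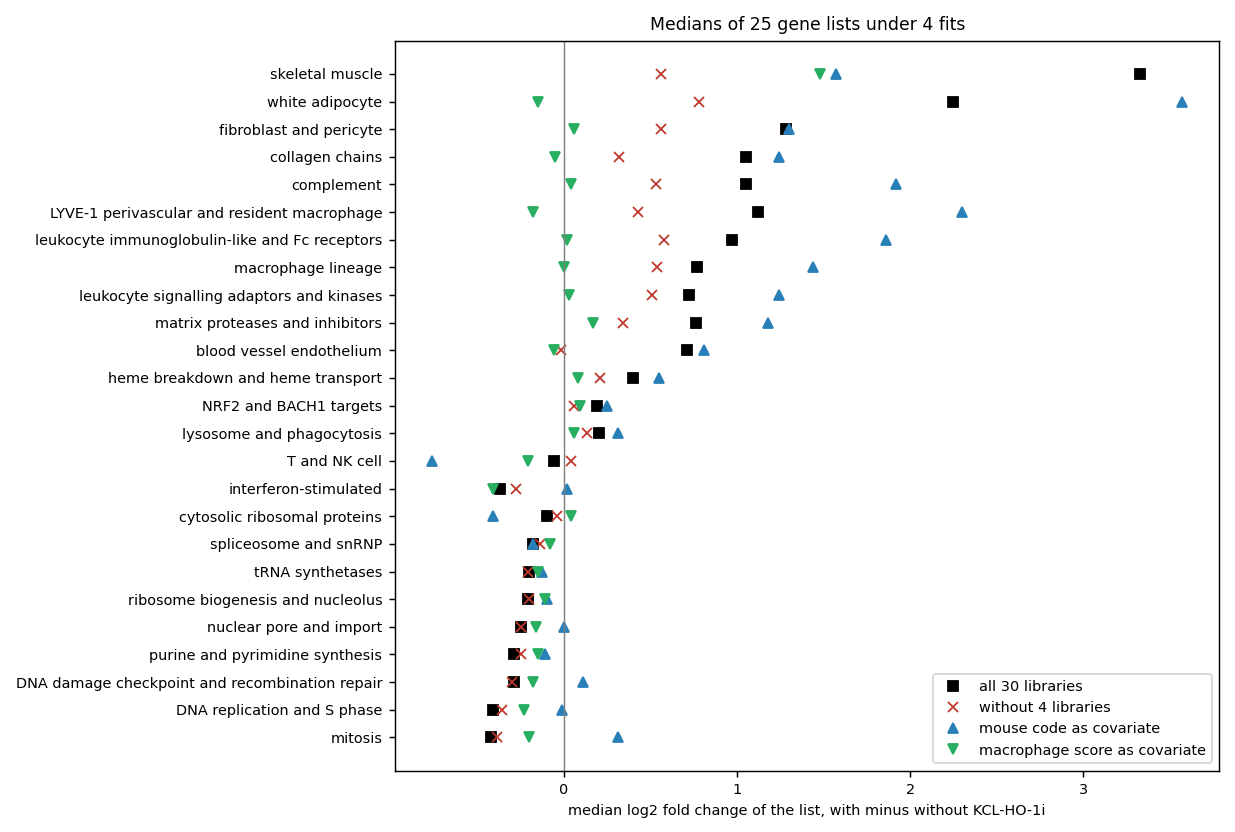
Median log2 fold change with minus without KCL-HO-1i (horizontal axis) of 25 gene lists (rows) under 4 edgeR fits, with all 30 libraries, without 4 libraries that stood apart, and with the mouse code or a macrophage score as covariate. Without the 4 libraries rising medians shrink, skeletal muscle from 3.33 to 0.56, while falling ones stay close. With the mouse code most falling medians shrink or turn, to -0.01 for DNA replication, 0.31 for mitosis and 0.11 for checkpoint and repair. Cytosolic ribosomal proteins (-0.10 to -0.41) and T and NK cell genes (-0.06 to -0.76) fall further with it, and the spliceosome stays at -0.18. Most rising medians grow with the mouse code, macrophage lineage from 0.77 to 1.44, but skeletal muscle shrinks to 1.57. With the macrophage score most rising medians lie near 0.

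The macrophage list summed to between 440 and 4652 CPM (median 2051) without and between 1978 and 6070 CPM (median 2931) with KCL-HO-1i. When the mean log2 level of that list entered edgeR as a covariate, the number past an adjusted p under 0.05 was 0, 283 were higher and 194 lower at an unadjusted p under 0.05, and the medians were 0.03 for leukocyte signalling and -0.23 for DNA replication. For the macrophage genes themselves a median near 0 is set by the covariate, which is built from them. In that fit Hmox1 had 1.81, Slc40a1 0.86, Hcls1 0.59 and Gemin5 -0.32. The part of macrophage content in each gene's difference was not tested further.

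Whether the effect of KCL-HO-1i differed between the vehicle, 5-FU and gemcitabine backgrounds was tested for each gene. At an adjusted p under 0.05 there were 0 genes in edgeR (smallest adjusted p 0.685) and 786 at an unadjusted p under 0.05 (5.75%), while DESeq2 called 2 and limma-voom 0. The 6 genes with the smallest p were Smurf2, Camsap1, Nab2, Strada, Myb and Cog1. Smurf2, a ubiquitin ligase of TGF-beta signalling, had matched differences of -0.41, 1.12 and -0.46 in the vehicle, 5-FU and gemcitabine backgrounds, and Myb, a transcription factor of progenitor cells, 0.34, -1.79 and -0.10. In 5 of the 6 the 5-FU background was the one that stood higher, and for Myb it was the one that stood lower. These 6 genes were picked by p and did not pass an adjusted p under 0.05 in edgeR, so that a shared direction among them was not tested.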

How the data were processed

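The authors deposited 1 table of gene-level expected counts (estimated counts from Salmon, of which 38.0% of values are not whole) for 21841 genes in 30 libraries. The study's methods call them TPM counts, but the values are not on that scale. The submitters' processing notes name FastQC 0.11.9, STAR 2.7.9a, Salmon 1.9.0, DESeq2 and the mouse build mm10. Counts were rounded and tested in R 4.3.3 with edgeR 4.0.16 (trimmed mean of M-values, filterByExpr with a minimum count of 10, robust quasi-likelihood test), with 6 group means over all 30 libraries and Benjamini-Hochberg adjustment. The 8178 genes left out by the filter held 0.0564% of counts. The effect of KCL-HO-1i was the mean of 3 matched differences, and its variation between backgrounds was tested with 2 degrees of freedom. DESeq2 1.42.0 and limma 3.58.1 were alternatives. The fitting code was tested on simulated data.

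Gene symbols and coordinates were matched to RefSeq GRCm38.p6 tables. Named were the genes past an adjusted p under 0.05, the 12 genes on each side with the smallest p among those with 1 sign in 3 backgrounds and at least 1 CPM, up to 4 members of each of 59 lists by p plus 1 in the other direction, 6 genes of heme handling and splicing, and the 6 genes of the smallest p between backgrounds. The members, gene lists and promoter letters were chosen with earlier results of these data known. No p was computed for a list. Per the study the libraries of a group came from separate mice with spontaneous tumours, collected on separate days. The labels give neither the days nor what the mouse code stands for, so the part of the day was not tested and p-values measure the spread between these samples. Residuals of libraries with the same replicate number had a mean correlation of 0.00284 over 75 pairs (lowest -0.584, highest 0.480), so the numbers were not taken to pair libraries. No 2 libraries of a group agreed within sampling noise (lowest chi-square per degree of freedom 20.7 over 60 pairs). The counting floor of 3 reads covers counting error only.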

Additional observations from a re-analysis of the deposited data

Results flagged for a closer look

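In 29 named genes the 5 libraries of each group were checked, on the log2 CPM scale, for a value whose gap to the nearest other value was over 0.71 of the group's range, which chance gives in about 1 of 20 groups. Of 174 groups 17 held such a value. KCL-HO-1i/5-FU replicate 3 was far above the rest of its group for Slc40a1 (250 CPM) and Slc11a1 (39.1 CPM). The lowest library of the 5-FU group, replicate 5, was far below the rest for Atm (21.3 CPM) and Rrm1 (70.5 CPM). Vehicle replicate 3 was far above its group for Chek1 (17.1 CPM) and Atp13a1 (119 CPM).

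Other values far from their group were found for Hcls1 in 5-FU replicate 4 (7.82 CPM), C2cd3 in 5-FU replicate 3 (55.3 CPM) and KCL-HO-1i replicate 1 (52.0 CPM), Atm and Shmt2 in KCL-HO-1i/gemcitabine replicate 1 (18.0 and 99.7 CPM), Hmox2 in KCL-HO-1i/5-FU replicate 4 (57.7 CPM) and Blvra in KCL-HO-1i replicate 5 (33.1 CPM). Lilr4b and Spic, both of few reads, had such values in vehicle replicate 2 (Lilr4b, 0.291 CPM), vehicle replicate 4 (Spic, 0.170 CPM), gemcitabine replicate 5 (Spic, 0.596 CPM) and KCL-HO-1i replicate 1 (Spic, 0 CPM).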

How the results depend on the processing

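The count of 8 genes past an adjusted p under 0.05 was 1139 with DESeq2, 263 with limma-voom, 158 with an additive model and 509 with 2 pooled groups of 15. It was 0 with the mouse code, 0 with the macrophage score, 0 with the skeletal muscle score and 1 with the white adipocyte score as covariate, and 1278 at an adjusted p under 0.1. Leaving out 4 libraries with KCL-HO-1i gave 1 gene and leaving out these and 2 without it gave 2, both settings chosen after seeing the data. At an unadjusted p under 0.05 the 1877 higher and 1260 lower genes became 848 and 522 with the mouse code, 830 and 575 with the white adipocyte score, 283 and 194 with the macrophage score, 750 and 571 with the muscle score, 591 and 769 without the 4 libraries and 470 and 532 without the 6. Between backgrounds DESeq2 called 2 genes. The cause was not tested.

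Leaving out 1 library at a time gave 3 to 1130 genes past an adjusted p under 0.05, 1456 to 1986 higher and 1041 to 1672 lower at an unadjusted p under 0.05, and 0 between backgrounds. The count was 1130 without gemcitabine replicate 5, 840 when replicate 4 of KCL-HO-1i/5-FU was dropped, 573 and 514 without replicate 5 of 5-FU and KCL-HO-1i/5-FU, 467 and 478 without KCL-HO-1i replicates 1 and 5, 465 without KCL-HO-1i/gemcitabine replicate 4, 18 without vehicle replicate 2 and 19 when replicate 1 of KCL-HO-1i/5-FU was dropped. It was 3 without 5-FU replicate 1, KCL-HO-1i replicate 3 or vehicle replicate 5, 4 without KCL-HO-1i/5-FU replicate 3, gemcitabine replicate 1 or vehicle replicate 3, and 5 without 5-FU replicate 2, KCL-HO-1i replicate 2, KCL-HO-1i/gemcitabine replicates 1 and 5 or gemcitabine replicates 3 and 4. Hmox1, Hcls1 and Slc40a1 passed in all 30 of these fits, whereas Lcp2 was lost in 19, Spic in 15, Gemin5 in 12, Lilr4b in 8 and Slc11a1 in 3.

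The replicate block gave 12 genes past an adjusted p under 0.05 and 25 past 0.1, and the numbers were not taken to pair libraries. With the mouse code the log2 fold change turned in sign for Asns (0.13), Lcp1 (0.39), Cfb (1.01), Rsad2 (0.41), Cxcl5 (-2.39), Cdh1 (0.10), Mcm7 (0.09), Ndc80 (0.03), Bub1b (0.30), Mki67 (0.35), Heatr1 (0.24), Ipo7 (0.06), Hmox2 (-0.22) and Nab2 (-0.01). It turned with the macrophage score for F13a1 (-0.26), Cd4 (-0.36), Lyve1 (-0.96) and Blvra (0.02), with the white adipocyte score for Lyve1 (-0.92) and Blvra (0.03), with limma-voom for Lcp1 (0.10) and Cfb (0.14), without the filter for Hmox2 (-0.01), without the 4 libraries for Lyve1 (-0.14) and Hmox2 (-0.01) and without the 6 for Lyve1 (-0.33) and Hmox2 (-0.02).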
